A study of Homo sapiens with 4 samples.

Results

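Selenoproteins are proteins that carry selenocysteine (Sec), an amino acid that is encoded by UGA, a codon that elsewhere stops translation. Of the 10 selenoprotein genes chosen by name (SELENOH, SELENOF, SELENOK, SELENOS, SELENOT, SELENOW, SELENOM, SELENON, GPX1 and TXNRD1), 7 have a row in the ribosome profiling tables, and each of these is listed in all 4 tables. SELENOS, GPX1 and TXNRD1 are not listed and were not analysed here. The tables together list 9271 transcripts, 1 for each gene, of which 8568 are in every table. A table lists a transcript only when its CDS density reaches 1 RPKM (RPKM is a read density scaled to region length and to the reads mapped in the library) and, where its 3′UTR has an in-frame stop codon (3′TC), when at least 5 codons separate the normal termination codon (NTC) from the first of these.

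Ribosome profiling sequences the mRNA pieces that ribosomes shield from nuclease (ribosome protected fragments, RPFs). The 4 libraries came from HEK293T, an established line derived from human embryonic kidney into which the large T antigen of simian virus was introduced. There were 2 libraries of untreated cells (replicates A and B) and 2 of cells kept for 24 hr in G418 at 0.5 mg/mL (replicates A and B), and all lysates contained cycloheximide. G418, an aminoglycoside, acts on the ribosome where codons are read and lowers the accuracy of decoding. The libraries held 2440204 to 6082600 reads on mRNAs, with the fewest in untreated replicate B. Replicates of a condition differed by more than counting noise, with a chi-square per degree of freedom of 4.10 in untreated and 1.33 in G418-treated cells. Of 8 markers of HEK293T cells, 5 were listed in all 4 tables, whereas of 5 markers of other cell types only COL1A1 was, at 3.59 to 5.54 RPKM. RPFs on an mRNA follow both how much of it is present and how many ribosomes it carries, and these cannot be told apart from RPFs alone.

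To insert Sec, a hairpin in the 3′UTR (the SECIS element) recruits SECISBP2 and the elongation factor EEFSEC, which brings the Sec tRNA to the UGA codon. Termination competes with insertion at this codon, and an mRNA that terminates there can be destroyed by nonsense-mediated decay. Most selenoproteins are oxidoreductases with Sec in the active site, and several of them reside in the endoplasmic reticulum (ER). An mRNA of this kind therefore has a pair of places where decoding accuracy matters, the internal UGA and the NTC.

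The Sec codons are shown first, because they are the feature that sets these mRNAs apart. Each 30 nt sequence was read from the spliced GENCODE 44 transcript on hg38, 5′ to 3′, with the Sec codon in capitals.
SELENOW: gtttattgtggcgctTGAggctacaagtcc
SELENOT: cagatttgtgtttccTGAggttataggcgg
SELENOM: gagacctgcgggggaTGAcagctgaaccgc
SELENOH: gagcattgcactagcTGAcgcgtctatggg
SELENOF: cttgaagtttgtggaTGAaaattgggaagg
SELENOK: ccaatggctggtggaTGAggaaggtaaatg
SELENON: cttccctggctcaatTGAtcctcctgcctc

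A cysteine codon (TGT or TGC) lies before the Sec codon with 2 codons between them in SELENOW, SELENOT, SELENOM and SELENOH, and with 1 codon between them in SELENOF. This spacing of cysteine and Sec is the redox motif of thioredoxin-like selenoproteins. The 5 codons shown before the Sec codon hold no cysteine codon in SELENOK and SELENON. SELENON has another Sec codon, whose sequence is not shown here.

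The Sec codon stands near the start of some CDSs and at the very end of others. In SELENOW, a small cytosolic protein abundant in muscle and brain, it is codon 13 of 87, in exon 2 of 6 (chr19:47780732-47780734, plus strand). In SELENOH, a nucleolar protein, it is codon 44 of 122 (chr11:57741816-57741818, plus strand). In SELENOM, a protein of the ER lumen, it is codon 48 of 145 (chr22:31105951-31105953, minus strand). In SELENOT, an ER membrane protein with the same fold as SELENOW, it is codon 49 of 195 (chr3:150622392-150622394, plus strand). In SELENOF, which binds the glycoprotein folding sensor UGGT in the ER lumen, it is codon 96 of 165 (chr1:86880690-86880692, minus strand). In SELENOK, an ER membrane protein that joins complexes for palmitoylation and ER-associated degradation, it is codon 92 of 94 (chr3:53885831-53885833, minus strand). SELENON, an ER membrane protein of calcium handling in which mutations cause a congenital myopathy, has 2 Sec codons, and the sequence shown is that of codon 127 of 590 (chr1:25802093-25802095, plus strand).

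The authors left the first 18 and the last 15 nt of each CDS out of the density, so the counted CDS is shorter than the CDS. The share of the counted CDS that lies after the Sec codon was 90.9% in SELENOW, 76.8% in SELENOT, 68.9% in SELENOM, 66.1% in SELENOH and 41.9% in SELENOF. In SELENON it was 79.1% after codon 127, and less after its other Sec codon. It was 0% in SELENOK, where the Sec codon falls in the stretch left out.

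**Figure D1:**
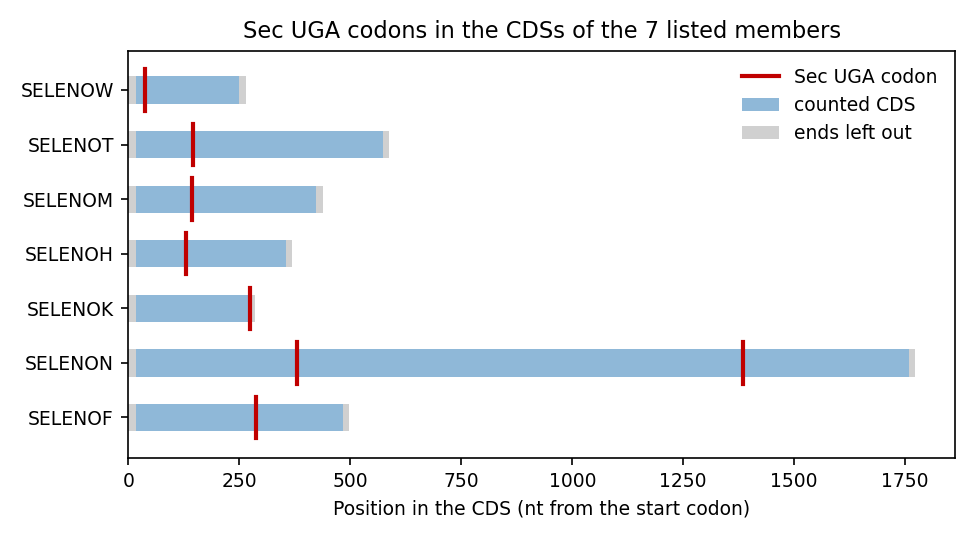
Each bar is the CDS of a listed selenoprotein mRNA, drawn to scale in nucleotides from the start codon, with the counted part in blue, the ends left out in grey and each Sec UGA codon as a red line. SELENOW has its Sec codon closest to the start, and SELENOK has it in the grey end.

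CDS density differed widely among the 7 mRNAs. In untreated cells SELENOF had the highest mean density, 364.8 ± 28.7 RPKM (SD, n = 2), and SELENON the lowest, 14.8 ± 1.201 RPKM. The order in untreated cells was SELENOF, SELENOH, SELENOK, SELENOT, SELENOM, SELENOW and SELENON. SELENOH and SELENOK did not differ beyond their spread in that order, nor did SELENOT and SELENOM, since the replicates of these neighbours overlapped. In G418-treated cells the order of the means was the same, from 445.2 ± 39.2 RPKM for SELENOF to 18.4 ± 0.312 RPKM for SELENON. There the replicates of SELENOM and SELENOW overlapped, at 71.0 ± 4.26 and 70.9 ± 2.02 RPKM.

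**Figure D2:**
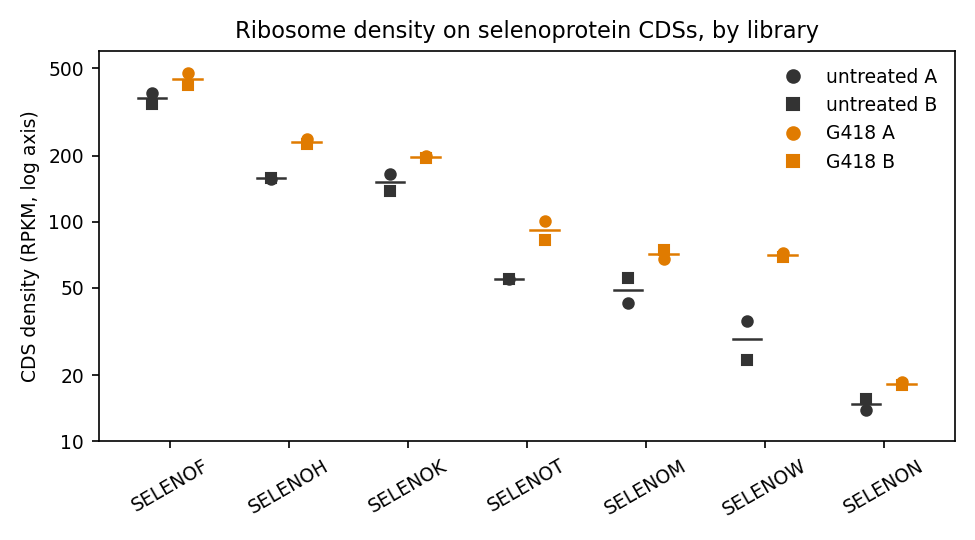
CDS density in RPKM (log axis) of each listed selenoprotein in each library, with circles for replicate A, squares for replicate B, black for untreated, orange for G418 and a line at each mean of 2. Both orange points lie above both black points for each of the 7 genes, as for 31.9% of all transcripts.

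The first question was whether ribosome occupancy of these CDSs changed with G418. For all 7 mRNAs, both G418 libraries had a higher CDS density than both untreated libraries, as did 31.9% of all transcripts in RPKM. On edgeR's TMM scale, which is not tied to library totals, the same held for all 7 and for 26.5% of all transcripts. Of the 7, 4 (SELENOW, SELENOT, SELENOM and SELENOH) rose past an adjusted p of 0.05 in edgeR's quasi-likelihood test with Benjamini-Hochberg adjustment over 8494 transcripts. Of all transcripts tested, 5.31% were called higher and 3.21% lower, 8.52% in all. The median log2 fold change of the 7 was 0.49, compared with 0.00 over all transcripts, for which the range from the lowest to the highest 5% was -0.35 to 0.59. SELENOK, SELENON and SELENOF did not pass the test. With 2 libraries a condition, an exact permutation test of 1 value per library cannot give a two-sided p below 0.333, so the calls rest on the spread that edgeR estimates across transcripts.

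SELENOW had the largest change. Its CDS counts were 73 in untreated A, 21 in untreated B, 139 in G418 A and 123 in G418 B, and values below follow this order. These correspond to densities of 35.4 and 23.4 RPKM in untreated and 72.3 and 69.4 RPKM in G418-treated cells, so that both G418 libraries were high and the groups did not overlap. The log2 fold change was 1.12 ± 0.19 (SE, edgeR, adjusted p = 0.00024), or 2.17-fold (95% confidence interval 1.65 to 2.84), higher than that of 99.5% of all transcripts tested. It stayed past the threshold in each of 10 alternatives, in which the log2 fold change lay between 0.98 and 1.46 and the adjusted p reached at most 0.017. The 21 reads of untreated replicate B are the smallest count among the 7 mRNAs. A pseudogene copy, SELENOWP1, holds 15.7% of the 28 nt windows of the SELENOW CDS without a mismatch, and reads of these windows cannot be assigned to either locus with certainty.

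SELENOT had densities of 54.9 and 54.7 RPKM in untreated and 100.4 and 82.2 RPKM in G418-treated cells. The groups did not overlap, and the G418 replicates lay further apart than the untreated ones. From counts of 272, 118, 466 and 349, the log2 fold change was 0.67 ± 0.12 (SE, edgeR, adjusted p = 0.00062), or 1.59-fold. The call was lost in 1 of 10 alternatives, without G418 replicate A (0.57, adjusted p = 0.235). For SELENOT, 54.2% of the 28 nt windows of the CDS also occur in the pseudogenes SELENOTP1 and SELENOTP2, and SAP30P1 lies on the opposite strand.

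SELENOH had 157.3 and 157.6 RPKM in untreated and 237.1 and 226.2 RPKM in G418-treated cells. Replicates of each condition were close, and the conditions were far apart by comparison. The CDS counts of 472, 206, 667 and 582 gave a log2 fold change of 0.49 ± 0.11 (SE, edgeR, adjusted p = 0.0033), or 1.41-fold. The call was lost when either G418 library was left out, with an adjusted p of 0.240 without replicate A and 0.316 without replicate B, at log2 fold changes of 0.51 and 0.47. None of its windows occur at another locus, but an overlapping gene model (ENSG00000254732) shares its strand and 66.7% of its windows.

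SELENOM had 42.6 and 55.2 RPKM in untreated and 68.0 and 74.0 RPKM in G418-treated cells. The groups did not overlap, but the untreated replicates differed by almost as much as separated them from the lower G418 library. The CDS counts were 154, 87, 230 and 229, and the log2 fold change was 0.52 ± 0.16 (SE, edgeR, adjusted p = 0.036), or 1.44-fold. This call was lost in 4 of 10 alternatives: with DESeq2 (adjusted p = 0.326) and without untreated replicate A (0.439), G418 replicate A (0.258) or G418 replicate B (0.719). The log2 fold changes in these fits were 0.48, 0.22, 0.61 and 0.38.

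SELENOK had 164.9 and 137.8 RPKM in untreated and 198.8 and 195.1 RPKM in G418-treated cells. The G418 libraries were both higher, yet the log2 fold change of 0.29 had a 95% confidence interval of 0.05 to 0.53 and an adjusted p of 0.124 in edgeR's test. Of its windows, 43.6% also occur in SELENOKP1 or SELENOKP2.

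SELENOF, the most densely occupied of the 7, had 385.1 and 344.5 RPKM in untreated and 473.0 and 417.5 RPKM in G418-treated cells. Its 623 to 1843 CDS reads a library made it the most precisely measured, with a log2 fold change of 0.21 (95% confidence interval 0.03 to 0.40, edgeR adjusted p = 0.144). None of its windows occur elsewhere.

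SELENON had 13.97 and 15.7 RPKM in untreated and 18.6 and 18.1 RPKM in G418-treated cells. Its log2 fold change was 0.27, with a 95% confidence interval of -0.02 to 0.55 that includes no change (edgeR adjusted p = 0.260). A gene model on its strand (ENSG00000255054) overlaps it, and ENSG00000228172 lies on the opposite strand. Leaving out single libraries moved SELENOF, SELENON or SELENOK past the threshold: SELENOF (adjusted p = 0.018) and SELENOK (0.041) without untreated replicate A, and SELENOF (0.013) and SELENON (0.016) without untreated replicate B. Their log2 fold changes in those fits lay between 0.19 and 0.38.

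Of a list of 15 further selenoproteins, 6 are in the tables. GPX3, a secreted glutathione peroxidase, rose, from 15.7 and 17.5 RPKM in untreated to 25.6 and 25.6 RPKM in G418-treated cells (log2 fold change 0.59 ± 0.18, SE, edgeR adjusted p = 0.032), although DESeq2 called 0 of the 6. The other 5 did not pass the test. Their log2 fold changes were 0.33 for SELENOP, the plasma selenium carrier, 0.25 for SEPHS2, which makes the selenium donor for Sec synthesis, 0.07 for SELENOO, a mitochondrial pseudokinase, 0.02 for MSRB1, a methionine sulfoxide reductase, and -0.22 for TXNRD2, the mitochondrial thioredoxin reductase. The median of the 6 was 0.16, below that of the 7 listed members.

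**Figure D3:**
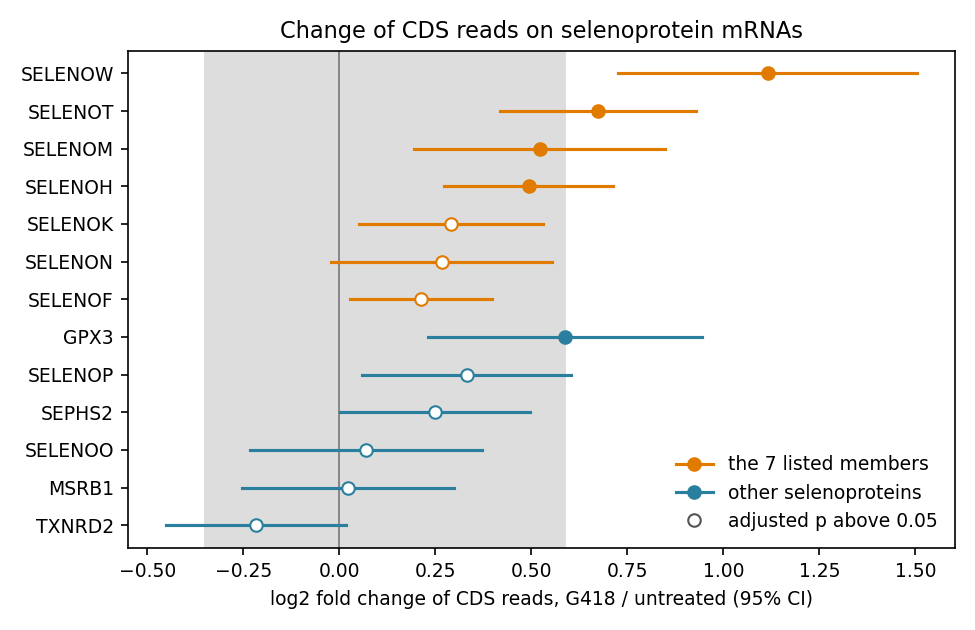
Log2 fold change of CDS reads, G418 over untreated, with 95% confidence intervals from edgeR, for the 7 listed members (orange) and 6 other selenoproteins (blue). Filled points passed an adjusted p of 0.05, and the grey band spans the lowest to the highest 5% of all 8494 transcripts, -0.35 to 0.59. SELENOW and SELENOT lie to the right of the band.

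Among selenoprotein mRNAs with 1 Sec codon, the change in CDS reads tended to be larger where more of the CDS lies after that codon. Among the 6 members with 1 Sec codon, the order by this share (SELENOW, SELENOT, SELENOM, SELENOH, SELENOF, SELENOK) matched the order by log2 fold change except for SELENOF and SELENOK, which changed places. Over these 6 genes Pearson's r was 0.78 and Spearman's rho was 0.94. Over the 11 selenoprotein genes with 1 Sec codon in the tables r was 0.78 and rho was 0.76. The 6 genes with over 50% of the counted CDS after the Sec codon had log2 fold changes of 0.25 to 1.12 (median 0.55), and the 5 genes with 50% or less had -0.22 to 0.29 (median 0.07).

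These coefficients are a description across genes, which share the 4 libraries and are not independent replicates. The measure was chosen after the data were read. Over the alternatives r of the 11 genes ranged from 0.60, without untreated replicate A, to 0.86, without untreated replicate B. For the 6 members r was 0.55 and rho 0.60 without untreated replicate A. SEPHS2 departed from the pattern, with 87.7% of its counted CDS after the Sec codon and a log2 fold change of 0.25 that did not pass. SELENON (0.27) and SELENOP (0.33), which have several Sec codons and were left out of the coefficients, also did not pass. After the Sec codon nearest the start lay 79.1% and 85.7% of their counted CDS, and less lay after the later Sec codons. CDS length moved with the change as well, with a Spearman's rho of -0.41 over the 11 genes, and its part in the relation was not tested. Among the 1287 transcripts other than the listed members with a counted CDS below 600 nt, the median log2 fold change was 0.02 and 8.86% were called higher. RPFs on either side of the Sec codon are not given separately in these tables, so a shift of ribosomes across that codon was not measured here.

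**Figure D4:**
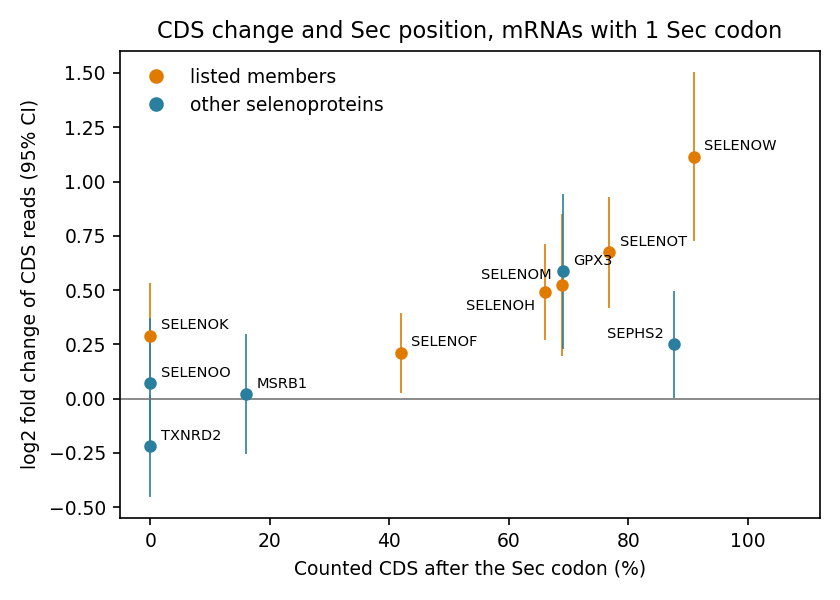
Log2 fold change of CDS reads (95% confidence interval, edgeR) against the percent of the counted CDS that lies after the Sec codon, for 6 listed members (orange) and 5 other selenoproteins (blue) with 1 Sec codon each. SELENOW, at 90.9%, has the highest change, and SEPHS2, at 87.7%, has 0.25.

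The transcripts whose CDS counts followed the 4 libraries most like those of SELENOW were KIAA1191, LRRC3 and C8orf88. Their root mean square distances from SELENOW, on log2 CPM centred over the 4 libraries, were 0.037, 0.053 and 0.054. KIAA1191 had counts of 54 and 15 in untreated and 103 and 95 in G418-treated cells. None of the 3 belongs to the lists described here.

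The second question was whether ribosomes passed the NTC of these mRNAs. The NTCs are shown with the same 30 nt frame, since the stop codon and the nucleotide after it bear on readthrough, and these 4 nt are in capitals. The sequences are again from GENCODE 44 on hg38, 5′ to 3′.
SELENOF: aagttggaacgcataTAAAtcttgcttaaa
SELENOK: ggtggatgaggaaggTAAAtgtctgctcta
SELENOW: gccttggctcagggcTAATgcgccctgaag
SELENOH: aagaagtacctgtcgTAGGgagatttgggt
SELENOM: gaccacgctgacctgTAGGtccgggggcgc
SELENON: cccctcctccagcccTAGAgtgcctggacg
SELENOT: ccacaccatcgatcaTAGCaccacctatca

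None of the 7 mRNAs ends in UGA. The NTC is UAA in 3 of them and UAG in 4, whereas over all 9271 transcripts UGA ended 50.7%, UAA 27.3% and UAG 22.1%. In the SELENOK sequence the Sec codon is visible as the lower case tga that stands 6 nt before the NTC. The 3′UTR stretch counted before the first in-frame 3′TC ran for 30 nt in SELENOH and SELENOT, 39 nt in SELENOW, 57 nt in SELENOF, 90 nt in SELENOK and 99 nt in SELENON. SELENOM has no in-frame 3′TC, and 181 nt of its 3′UTR were counted.

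Readthrough was measured as the ribosome readthrough score (RRTS), the RPF density from the NTC up to the first 3′TC in frame, over the CDS density, given here in percent. Summed over the 7 mRNAs and set against the reads that their CDS densities would place there, RRTS was 1.04% in untreated A, 4.04% in untreated B, 16.1% in G418 A and 15.2% in G418 B. These sums rest on 5 and 8 reads in untreated and 97 and 80 reads in G418-treated cells. Over all transcripts that end in UAA or UAG and reach the study's minimum of mRNA reads the corresponding values were 1.64%, 1.32%, 11.3% and 10.7%. Of the 97 and 80 G418 reads of the 7 mRNAs, SELENOK alone held 45 and 39. The higher sums of the 7 in G418-treated cells therefore lean on a single mRNA and do not describe the set.

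In single transcripts with at least 10 reads in the region, 82.6% of the 2827 tested rose in RRTS and 0.0707% fell (82.7% in all). A rise in a selenoprotein mRNA is thus what most of these transcripts showed. The minimum sums the reads of all 4 libraries, so G418 reads help a transcript to meet it and the share depends on it. With a minimum of 1 read, 2609 of 5815 were called higher. All 6 members that could be tested had fewer than 10 untreated reads in the region. They met the minimum of 10 reads only through their G418 reads, so neither a count of calls nor a p-value of RRTS is given for them. SELENOH, SELENOM and SELENON had no untreated read, and for them no edgeR fold change is given either.

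SELENOK held the most readthrough reads. Its NTC region had 4 and 3 reads in untreated and 45 and 39 reads in G418-treated cells, for an RRTS of 3.02% and 6.22% in untreated and 30% and 29.0% in G418-treated cells. The groups were far apart and the G418 replicates nearly equal. The log2 fold change was 2.89 ± 0.46 (SE, edgeR), and the ratio of pooled RRTS was 7.62 (95% interval for counting error 3.54 to 19.5). Other transcripts with UAAA had an aggregate RRTS of 8.81% and 8.31% in the G418 libraries, which would have placed 13.2 and 11.2 reads on the SELENOK region. SELENOK lay above 83.1% and 84.2% of them.

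SELENOF, with the same UAAA, had 1 and 2 reads in untreated and 21 and 23 reads in G418-treated cells. Its RRTS was 0.510% and 2.62% in untreated and 9.29% and 12.6% in G418-treated cells, with no overlap. The log2 fold change was 3.20 ± 0.68 (SE, edgeR). With 3 untreated reads in all, the ratio of pooled RRTS was 9.78 (95% interval for counting error 3.13 to 49.2). SELENOF lay above 45.5% and 55.3% of the other UAAA transcripts in the G418 libraries, close to their middle. SELENOK and SELENOF thus share the 4 nt stop codon, and their RRTS in G418-treated cells was 29.5% ± 0.731 and 10.9% ± 2.34 (SD, n = 2).

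Reads after the first in-frame 3′TC did not separate the conditions in SELENOF. There were 18 and 8 in untreated and 16 and 13 in G418-treated cells, and most untreated 3′UTR reads of SELENOF lay beyond the readthrough region. Over the whole 3′UTR the log2 fold change of SELENOF was therefore 0.74 (edgeR) instead of 3.20. SELENOK had 3 and 1 such reads in untreated and 8 and 3 in G418-treated cells, and its whole 3′UTR value was 2.43.

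SELENOH, which ends in UAGG, had no read before its 3′TC in either untreated library and 9 and 7 reads in the G418 libraries, an RRTS of 15.1% and 13.4%. Against a floor of 3 reads over both untreated libraries this was 2.89-fold higher, taking the G418 reads as observed. The lower 95% limit was 2.09-fold for counting error alone, and CDS reads of the untreated replicates differed by more than counting noise. A single read was worth 2.37% and 5.44% RRTS in the untreated libraries, so readthrough below those values was not detectable there. SELENOM, with the same UAGG, had no untreated read and 6 reads in each G418 library, an RRTS of 5.81% and 5.84%. This was 2.09-fold higher against the same floor, with a lower 95% limit of 1.45-fold for counting error alone. The aggregate RRTS of other UAGG transcripts was 11.5% and 10.9%, between the values of these 2 mRNAs.

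SELENON (UAGA) had no untreated read before its 3′TC and 8 and 2 reads in the G418 libraries. Its RRTS of 51.9% and 14.5% differed between the G418 replicates by more than that of any other member. Other transcripts with UAGA had an aggregate RRTS of 16.7% and 15.8%, at which SELENON would have held 2.58 and 2.18 reads. The RRTS of SELENON was 2.10-fold higher against the floor of 3 reads, with a lower 95% limit of 1.41-fold for counting error alone.

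SELENOT (UAGC) and SELENOW (UAAU) showed no rise in RRTS that could be detected. SELENOT had 0 and 3 reads in untreated and 7 and 3 reads in G418-treated cells, which gave an RRTS of 0% and 47.0% in untreated and 27.7% and 15.9% in G418-treated cells. The groups overlapped. The ratio of pooled RRTS was 1.59 (95% interval for counting error 0.41 to 8.998). The log2 fold change of 0.64 (edgeR) turned to -1.03 without untreated replicate A. Without untreated replicate B it turned to 5.19, a value set by the lack of any untreated read in that fit. The fold change thus depends on 3 reads in a single library. In the G418 libraries other UAGC transcripts had an aggregate RRTS of 21.8% and 21.8%. At these values SELENOT would have held 5.50 and 4.12 reads, compared with the 7 and 3 observed. SELENOT lay above 56.6% and 34.9% of these transcripts. In untreated replicate B their aggregate of 2.38% would have placed 0.15 reads on SELENOT, compared with the 3 observed. SELENOW had a single read before its 3′TC, in G418 replicate A, and was not tested. Other transcripts with UAAU had an aggregate RRTS of 11.9% and 11.8% in the G418 libraries, at which SELENOW would have held 2.81 and 2.46 reads.

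**Figure D5:**
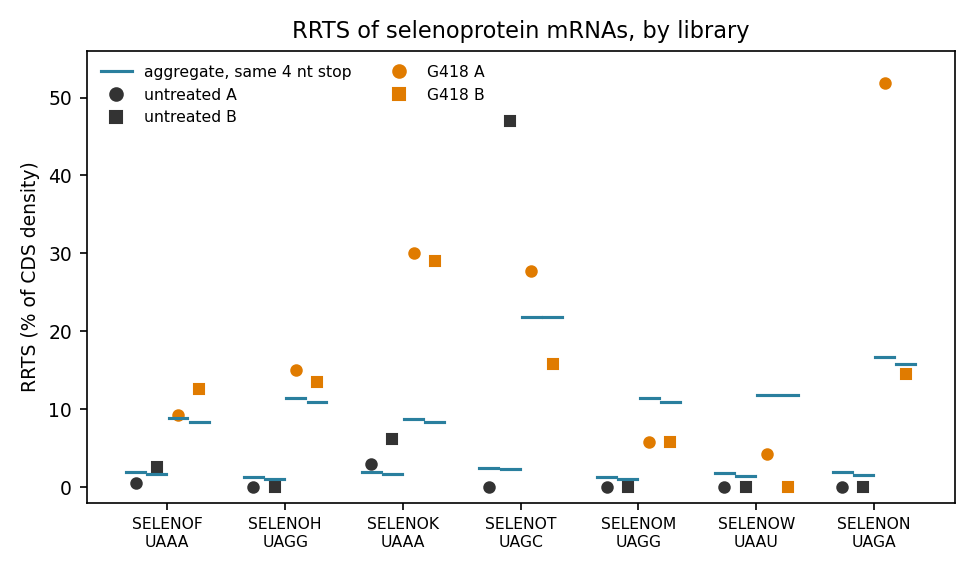
RRTS in percent of CDS density for each listed member and library (circles replicate A, squares replicate B, black untreated, orange G418), with a blue line at the aggregate RRTS of the other transcripts that share the 4 nt stop codon in the same library. Points at 0 had no read before the first in-frame 3′TC. SELENOK lies well above the blue lines in both G418 libraries, SELENOM lies below them, and the untreated SELENOT value of 47.0% rests on 3 reads.

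Upstream of the CDS, RPFs were counted in the 5′UTRs of 5 of the 7 mRNAs in every library. For SELENOH there were 53 and 23 in untreated and 46 and 38 in G418-treated cells, or 11.2 and 11.2 against 6.89 and 6.52 for each 100 CDS reads. For SELENOT the values were 5.15 and 5.93 in untreated and 1.93 and 2.29 in G418-treated cells. For SELENOM they were 2.60 and 3.45 against 2.16 and 1.74. In these 3 mRNAs the groups did not overlap and G418-treated cells were lower, as in 30.7% of the 5617 transcripts with a 5′UTR read in every library, while the CDS reads in the denominator rose. SELENOW had 17.8 and 28.6 in untreated and 12.1 and 20.3 in G418-treated cells, which overlapped. SELENOK had 1 to 6 such reads a library, SELENOF at most 1 and SELENON 0. Over all transcripts that end in UAA or UAG the values, for each 100 CDS reads, were 4.65, 5.01, 4.50 and 4.54, and the differences of single mRNAs were not tested.

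The genes around the selenoproteins were described by lists. Of 15 genes for Sec synthesis, insertion and selenium supply, 13 were listed, 0 rose and 1 fell in CDS reads, near the 8.52% called over all transcripts, with a median log2 fold change of -0.08 (DESeq2 called 1). The exception was NCL, nucleolin, whose log2 fold change was -0.29 ± 0.08 (SE, edgeR adjusted p = 0.016), although its densities of 1068 and 861 RPKM in untreated and 880 and 776 RPKM in G418-treated cells overlapped. SECISBP2, EEFSEC, SEPSECS and the seryl-tRNA synthetase SARS did not pass, with log2 fold changes of 0.25, -0.09, -0.08 and -0.18.

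Of 19 genes of cysteine-based redox systems, 14 were listed, 1 rose and 2 fell (5.31% and 3.21% over all transcripts). The median was -0.03, and DESeq2 called 1. The list holds thioredoxins, TXNIP, glutathione reductase, glutaredoxins, glutathione peroxidases, peroxiredoxins and methionine sulfoxide reductases. PRDX1, a peroxiredoxin that removes hydrogen peroxide, fell from 2799 and 2510 RPKM to 2094 and 1907 RPKM (log2 fold change -0.48 ± 0.08, SE, edgeR adjusted p = 0.00011). TXNIP, an inhibitor of thioredoxin, fell from 28.3 and 23.8 RPKM to 20.03 and 17.5 RPKM (-0.56 ± 0.14, adjusted p = 0.0094). GLRX5, a mitochondrial glutaredoxin of iron-sulfur cluster assembly, rose from 62.2 and 59.5 RPKM to 106.3 and 87.2 RPKM (0.60 ± 0.13, adjusted p = 0.0031).

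Of 15 targets of NRF2, the factor that switches on antioxidant genes, 10 were listed, 0 rose and 1 fell (3.21% over all transcripts), with a median of -0.18, and DESeq2 called 0. The call was TKT, transketolase, which passed in 6 of 10 alternatives, at 378.5 and 386.9 RPKM in untreated and 335.2 and 324.4 RPKM in G418-treated cells (-0.29 ± 0.08, SE, edgeR adjusted p = 0.023). Of 10 ER-associated degradation and folding partners of SELENOS, SELENOK and SELENOF, 7 were listed and edgeR called 0, with a median of -0.03, while 1 had an unadjusted p below 0.05 and DESeq2 called 0. The medians of these 4 lists lay below 0, compared with 0.49 for the 7 selenoprotein mRNAs.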

How the data were processed

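The authors collapsed duplicate reads, removed noncoding RNA reads, aligned the rest to hg38 (STAR is named in the submitters' processing notes) and assigned RPFs of 28 to 35 nt to a single GENCODE 30 transcript per gene. The deposited counts are RPFs on each region, the authors' RPM values are these scaled to mapped reads, the deposited RPKM values are densities over shortened regions, and RRTS and 3′UTR occupancy are ratio columns of the authors. Densities of 5′UTRs, a score as the authors deposited them, were not used. All RPM values were whole multiples of 1 read (100%, tolerance 0.05), and these reads were used for RRTS. The deposited counts equal them or are 1 lower.

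CDS counts were tested with edgeR (TMM, its filter on low counts) and RRTS with edgeR on reads before the first 3′TC, offset log(CDS reads + 0.5), at least 10 such reads and 128 mRNA reads per condition. Intervals of fold changes in CDS reads come from edgeR, and those of pooled RRTS cover counting error only. The study calls the replicates biological, and the labels do not say how they were separated. Fits were checked on simulated data. Sec codons, sequences and coordinates came from GENCODE 44, and 1 sequence is not reported here. Members and lists were chosen with earlier results of these data known. Named are all members, the called genes of each list (at most 4) and the 3 genes most like SELENOW. Alternatives were DESeq2, other scaling, filters, regions, the replicate letter and leaving out libraries. The software was edgeR 4.0.16 and DESeq2 1.42.0 under R 4.3.3, and pandas 2.3.3, numpy 2.4.6, matplotlib 3.10.9 and scipy 1.17.1 under Python 3.11.15.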

Additional observations from a re-analysis of the deposited data

How the results depend on the processing

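Of 117 alternative values of members, in CDS reads and RRTS together, 94 kept their direction and side of the threshold. Of the others, 15 were no longer past it, 7 came to pass it and 1 reversed. The RRTS values among the 117 carry the limit of the read minimum given above, so their side of the threshold is no measure of stability. The reversal was SELENOT RRTS, at -1.03 (log2) without untreated replicate A and 5.19 without untreated replicate B, which left no untreated read. In CDS reads, 4 members were called, 3 with DESeq2 and 6 with library totals, and leaving out a library gave 1 to 6. Over all transcripts 724 were called in CDS reads (451 higher, 273 lower), compared with 237 with DESeq2 (108 higher, 129 lower) and 1007 with library totals (887 higher, 120 lower), which moved the median of all transcripts to 0.11 (log2). Leaving out a library gave 73 to 2082, with 73 without G418 replicate B, 78 without G418 replicate A, 1425 without untreated replicate A and 2082 without untreated replicate B. In RRTS 2338 were called, 1372 with DESeq2 and 1538 with a minimum of 20 reads, which tests fewer transcripts, and 1394 to 2253 when a library was left out, with 1394 without G418 replicate A. SELENOH, SELENOM and SELENON had too few reads to be tested with that minimum or without either G418 library, as had SELENOT with that minimum or without G418 replicate A, and SELENOM and SELENON when every library had to reach the minimum of mRNA reads. Other causes were not tested.

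With the replicate letter as a block, 1070 transcripts were called in CDS reads and 1854 in RRTS. The same 4 members were called in CDS reads. The letters are shared by 2 pairs only, and A minus B in untreated correlated with A minus B in G418 at 0.13 over 8494 transcripts, so a pairing was not established. SELENOW, with 94 untreated CDS reads in all, and the untreated 3′UTR reads set the limits of depth.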
